A study of Mus musculus with 11 samples.

Results

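RNA sequencing of the whole lacrimal gland was compared between *Tlr7* KO mice and wild type (WT) mice, in 8 of the 11 mice of the series. The comparison takes the 3 WT mice and the 5 *Tlr7* KO mice, numbered as in the labels, and all genes whose counts in the WT mice together reached 30, which were 13937 of 19058 genes. The other 3 mice, *Ifnar1* KO males of the NOD strain that lack the type I interferon receptor, are used only where named, mainly in a last comparison. All 8 mice were males of the NOD strain, which develops autoimmunity spontaneously, and were 20 to 22 weeks old. The WT mice carry no engineered allele. The *Tlr7* KO mice descend from NOD embryos injected with Cas9 and a guide RNA, and carry a deletion of 2 base pairs in *Tlr7* in every tissue; the strain comes from 1 edited allele, so any other change linked to it cannot be told apart from the deletion. Each library was made from 1 gland of 1 mouse, and the other gland went to histology. The question addressed was which transcripts differ when TLR7 is missing, and the weight here is on genes higher in the knockout and on the secretory epithelium.

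The lacrimal gland is an exocrine gland whose acinar cells fold, package and release the proteins of the tear film, while duct cells modify the fluid and contractile myoepithelial cells surround the acini. In mice these proteins include secretoglobins, lipocalins, major urinary proteins and exocrine gland-secreting peptides, many of which bind odorants or act as chemical signals and many of which are made in a sex-dependent way. TLR7 is an endosomal receptor for single-stranded RNA in B cells, plasmacytoid dendritic cells and macrophages, and male NOD mice develop lymphocytic inflammation of this gland.

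Several libraries stood apart before any comparison was made. Several salivary transcripts were high in WT 3 alone, with 1892 CPM of *Bpifa2* and 508 CPM of *Amy1*, against no more than 1.79 and 1.21 CPM in the other 7 mice. Others on the salivary list did not follow. *Mucl2* was highest in WT 2 (20067 CPM, against 8807 in WT 3) and *Egf* in *Tlr7* KO 1 (58.99 CPM, against 38.1 in WT 3). *Klk1b1*, also on this list but under the gene filter, had 0, 0 and 2 counts in WT 1, 2 and 3. It had 64, 77, 139, 72 and 12 counts in *Tlr7* KO 1 to 5. The 16 skeletal muscle genes summed to 631.3 CPM in WT 1, 475.97 in WT 2 and 451.95 in *Tlr7* KO 4, and to between 1.52 and 3.15 in the other 5 mice. WT 2 had the lowest sums of the WT mice for B cell genes (138.7 CPM, against 495.4 and 436 in WT 1 and WT 3) and T cell genes (54.5, against 170.3 and 129.7), and differed from the other WT mice in clock genes as well. CPM are counts relative to the size of each library, which was scaled between libraries with TMM factors that ran from 0.876 to 1.48 in WT and from 0.691 to 0.98 in *Tlr7* KO mice. Secretoglobins took 48.9% to 61.9% of the counts in WT and 57.3% to 63.8% in *Tlr7* KO glands, so a few genes set much of each library size.

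**Figure D1:**
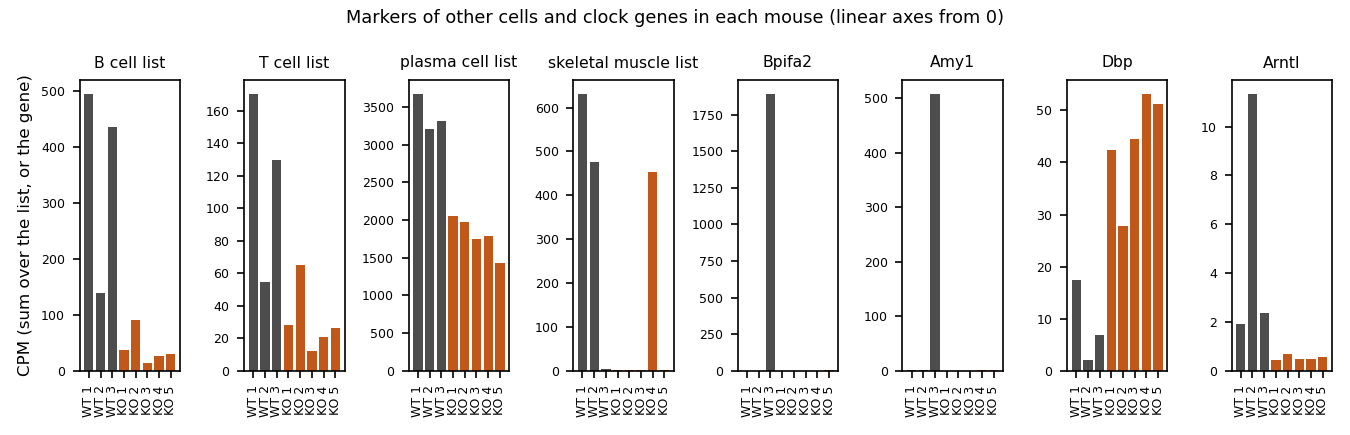
Summed level of the B cell, T cell, plasma cell and skeletal muscle lists and the level of 4 genes (CPM, linear axes from 0) in each WT mouse (grey bars) and each *Tlr7* KO mouse (orange bars), 1 bar per mouse. The salivary genes *Bpifa2* and *Amy1* stand out in WT 3 alone, muscle genes in WT 1, WT 2 and KO 4, and *Arntl* in WT 2.

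*Tlr7* itself was at 2.93, 1.51 and 2.71 CPM in WT 1, 2 and 3 and at 0.761, 0.783, 0.944, 0.492 and 0.893 CPM in *Tlr7* KO 1 to 5, and all values by mouse below follow this order. Every KO mouse lay below every WT mouse, and WT 2 was the lowest of the WT mice. The log2 fold change of the knockout against WT was -1.62 (SE 0.28, adjusted p = 0.00364, edgeR's quasi-likelihood test). A deletion of 2 base pairs leaves most of the transcript in place, so its level by itself does not check the genotype, and B cell transcripts were lower in all KO mice than in all WT mice as well; their part in this value was not tested.

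A gene was called at an adjusted p under 0.05, which 4564 of 13937 genes passed (32.7%), 2135 of them higher (15.3%) and 2429 lower (17.4%) in the knockout. The higher genes were mostly small changes: 1902 (13.6%) rose by under 2-fold, with a median of 1.36-fold, and 233 (1.67%) by at least 2-fold. Of the 1902 genes, 1745 had every KO mouse above every WT mouse, and of the 233 genes 227 had, while over all genes tested 30.8% had groups that did not overlap (16.6% with every KO mouse higher and 14.2% with every KO mouse lower). Among genes that fell by at least 2-fold (1455 genes, 10.4%), 958 had no overlap between the groups, a share of 65.8% against 97.4% for the 233. The 233 genes made up 2.31% of the WT transcripts and 9.25% of the KO transcripts (share of summed CPM), and 180 of them are protein-coding. The number of calls rested on the WT mice: it fell to 2735 when WT 1 was left out and to 2601 when WT 3 was, and rose to 6595 when WT 2 was, and the number at least 2-fold lower was 871 without WT 1 and 811 without WT 3.

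Scaling decided the direction of small changes. The median over all genes was at a log2 fold change of -0.037 with TMM factors, with library size alone it was -0.54, and when libraries were scaled to 24 pan-epithelial genes it was -0.29. Of the genes called, 46.8% were higher in the knockout with TMM factors, 2.8% with library size alone and 12.4% with the pan-epithelial scaling. Of the 233 genes at least 2-fold higher, 78 remained so with library size alone and 141 with the pan-epithelial scaling. Of the 1902 genes that rose by under 2-fold, 5 were still called higher with library size alone, which lowers the median of all genes by 0.50, and 409 with the pan-epithelial scaling; none was called lower in either. Among those named below, *Esp15*, *Esp16*, *Pigr* and *Scgb2b24* kept their call with library size alone. Lists are therefore also described relative to the median of all genes under the same scaling.

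**Figure D2:**
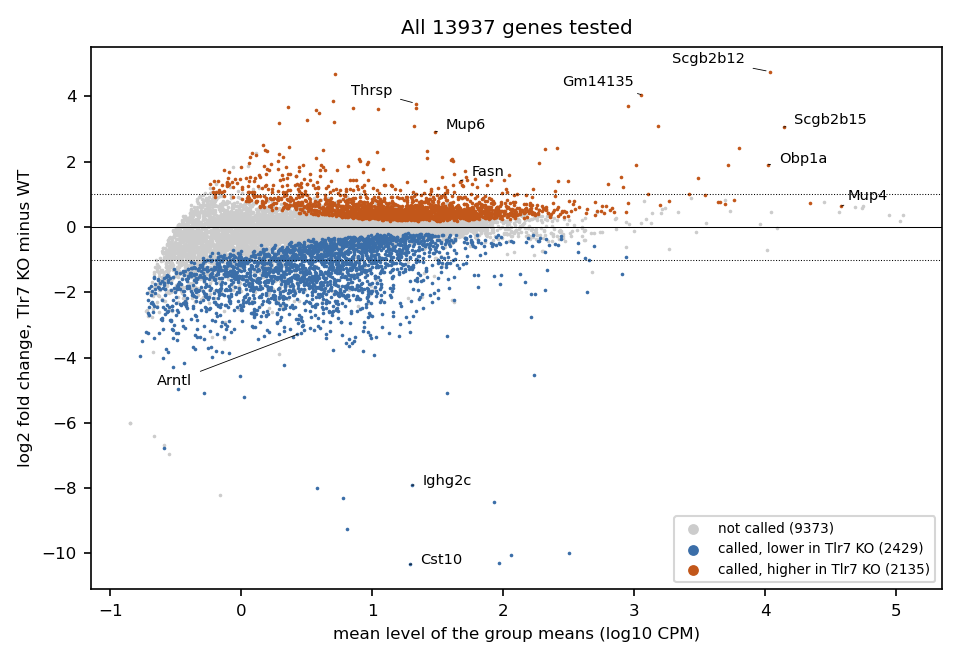
Log2 fold change (*Tlr7* KO minus WT, TMM scaling) against the mean level (log10 CPM) of each of the 13937 genes tested, with called genes in orange (higher in the knockout) and blue (lower), other genes in grey and dotted lines at 2-fold. Genes higher in the knockout form a dense band under 2-fold, with secreted protein genes such as *Scgb2b12* and *Scgb2b15* far above it at high level.

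The secretoglobins, small secreted dimers that are the most abundant transcripts of this gland, held some of the largest increases. Of 24 tested, 10 were higher in the knockout (41.7%, against 15.3% of all genes), 8 of them at least 2-fold, and none was lower. The median log2 fold change was 0.60, which is 0.64 above that of all genes. The number higher changed little with scaling, with 10 higher and 1 lower at library size alone and 8 higher and 1 lower with the pan-epithelial scaling, while 20 were higher without WT 2. *Scgb2b12* was at 486, 1579 and 268 CPM in WT and at 21154, 17427, 25843, 20140.1 and 20752 CPM in KO glands. All KO mice were high and close together, and the WT mice were low, with WT 2 above the other WT mice. The increase was 27.1-fold (log2 fold change 4.76, SE 0.60, adjusted p = 0.00121), and 55.8-fold without WT 2. *Scgb2b15* went from 3035, 3797 and 2043 CPM in WT to 24146, 20935, 26303, 22057 and 30168 CPM in KO glands (log2 fold change 3.06, SE 0.28, adjusted p = 0.000478). *Scgb2b19* had 106, 221 and 57.2 CPM in WT and 1608, 1361, 2009.9, 1445 and 1875 CPM in KO glands, a 12.96-fold increase (adjusted p = 0.000952) that was 20.3-fold without WT 2. Neither gene had overlapping groups, which the choice of these genes required. *Scgb2b17*, *Scgb1b21* and *Scgb1b19* rose 8.58-fold, 12.3-fold and 8.51-fold (adjusted p = 0.000242, 0.000225 and 0.000861), the last by 13.6-fold without WT 2. *Scgb2a2*, the mammaglobin gene, was at 1228, 4120.3 and 658 CPM in WT and 10958, 8260.4, 8215, 11595 and 14386 CPM in KO glands, with WT 2 closest to the knockout and a 5.34-fold increase (adjusted p = 0.0112) that was 11.3-fold without WT 2. The most abundant secretoglobins did not pass the test: *Scgb2b7* was at 74014, 155275 and 66782 CPM in WT and 1.1e+05, 123205, 121394, 101212 and 185679 CPM in KO glands (adjusted p = 0.473), and *Scgb2b20* had an adjusted p of 0.738. In both genes WT 2 and KO 5 were the highest mice of their groups, and the groups overlapped.

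The genes of this cluster on chromosome 7 are relatives, so the counting could share reads among them. How alike their transcripts are was not measured, and the windows below lie before the start of the genes. The 250 bases before the start of *Scgb2b12* and *Scgb2b15*, which rose, and of *Scgb2b20*, which was not called, are shown because they differ little while the levels differ much (RefSeq, GRCm38.p6, minus strand). Capitals mark bases that do not match *Scgb2b20* in a global alignment. The windows lie at chr7:32327246-32327495, chr7:32829654-32829903 and chr7:33366320-33366569.
Scgb2b12: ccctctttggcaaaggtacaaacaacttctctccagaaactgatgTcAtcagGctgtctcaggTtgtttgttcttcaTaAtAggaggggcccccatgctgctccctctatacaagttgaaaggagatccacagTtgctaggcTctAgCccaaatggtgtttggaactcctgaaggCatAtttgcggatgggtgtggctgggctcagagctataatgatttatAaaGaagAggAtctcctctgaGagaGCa
Scgb2b15: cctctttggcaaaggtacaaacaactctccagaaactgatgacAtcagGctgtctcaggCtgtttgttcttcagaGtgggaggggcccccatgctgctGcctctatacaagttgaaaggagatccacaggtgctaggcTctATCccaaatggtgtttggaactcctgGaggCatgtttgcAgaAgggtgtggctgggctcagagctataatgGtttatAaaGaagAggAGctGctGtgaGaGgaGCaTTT
Scgb2b20: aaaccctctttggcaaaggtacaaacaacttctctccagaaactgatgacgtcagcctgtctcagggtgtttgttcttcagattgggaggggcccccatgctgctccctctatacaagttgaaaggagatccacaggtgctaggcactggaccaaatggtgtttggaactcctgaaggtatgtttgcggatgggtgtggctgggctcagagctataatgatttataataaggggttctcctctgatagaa
The window of *Scgb2b12* was 93.7% identical to that of *Scgb2b19* and 90.6% to that of *Scgb2b15*, which both rose, and 92.0% and 90.9% identical to those of *Scgb2b7* and *Scgb2b20*, which were not called. The window of *Scgb2b17* equals that of *Scgb2b15* over all 250 bases. The second deposited table, made by another counting, gave *Scgb2b12* and *Scgb2b15* log2 fold changes of 4.48 and 3.38, *Scgb2b19* 4.86 against 3.696 in the first table and *Scgb2b17* 7.21 against 3.100; the part of shared reads in this was not tested.

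Lipocalins, major urinary proteins and odorant-binding proteins, which carry small hydrophobic molecules, were higher for 9 of 11 genes tested (81.8%, against 15.3% of all genes), 5 of them at least 2-fold, and none was lower. Their median log2 fold change was 0.89, and 0.93 relative to all genes, but the count fell to 2 higher and 1 lower at library size alone, to 3 higher with the pan-epithelial scaling, to 4 without WT 3 and to 5 without KO 3. *Mup6* was at 4.57, 9.03 and 7.72 CPM in WT and 55.2, 48.2, 60.1, 55.03 and 48.5 CPM in KO glands, a 7.53-fold increase (log2 fold change 2.91, SE 0.21, adjusted p = 0.000186). *Obp1a*, an odorant-binding protein, was at 3212, 2601 and 7544 CPM in WT and 17642, 22736, 9747, 17651 and 15792 CPM in KO glands (log2 fold change 1.91, SE 0.41, adjusted p = 0.0085, and 2.52 without WT 3). In both genes the groups did not overlap, which their choice required. For *Obp1a* WT 3 was the highest WT mouse and KO 3 the lowest KO mouse. *Gm5938*, also on chromosome X, ranked the mice in the same order as *Obp1a*, at 1549, 1068 and 3942 CPM in WT and 8407, 11862, 4801, 8575 and 7366 CPM in KO glands (log2 fold change 1.91, adjusted p = 0.0124, with 2.64 without WT 3 and an adjusted p of 0.0509 without WT 1). *Lcn11* rose 1.78-fold (adjusted p = 0.0116), a call that was lost with library size alone and with the pan-epithelial scaling. *Mup4*, the most abundant of the group at 29898 ± 4635 CPM in WT (SD, n = 3) and 46568 ± 3099 CPM in KO glands (SD, n = 5), was called at an adjusted p of 0.049 that was lost in 15 of 19 alternatives. *Mup5* (-1.06) and *Lcn2* (-0.25) had log2 fold changes below 0 that did not pass the test.

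The exocrine gland-secreting peptides, small secreted proteins that vomeronasal neurons detect, were higher for 8 of 13 genes and lower for 1, with a median log2 fold change of 1.11. These are 61.5% and 7.69%, against 15.3% and 17.4% of all genes. Relative to all genes the median was 1.15, and 1.38 at library size alone, where 9 were higher and 2 lower; without WT 1, 5 were higher. *Esp1*, the male tear pheromone, was at 3.55, 4.58 and 1.61 CPM in WT and 52.7, 23.2, 34.5, 52.98 and 36.1 CPM in KO glands. Groups without overlap were a condition for naming it. The increase was 12.5-fold (adjusted p = 0.000776). *Esp3* was at 13.9, 14.5 and 20.4 CPM in WT and 61.4, 70.1, 64.8, 66.1 and 72.7 CPM in KO glands (log2 fold change 2.04, adjusted p = 0.000151). *Esp15* and *Esp16*, which are far more abundant, rose 2.0-fold and 1.98-fold (adjusted p = 0.0039 and 0.0137, the latter 0.0597 without WT 1). *Esp23* went the other way, at 5.52, 21.7 and 23.9 CPM in WT and 4.19, 2.304, 3.28, 3.86 and 8.41 CPM in KO glands with overlapping groups (adjusted p = 0.0137, and 0.0608 without WT 3).

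Of 18 other tear and saliva proteins, 5 were higher (27.8%, against 15.3% of all genes) and 3 lower (16.7%, against 17.4%), and the median log2 fold change was -0.17. The 5 higher genes were *Lyz1*, *Lpo*, *Pigr*, *Agr2*, which was not called without WT 1, and *Azgp1*. *Lpo*, the peroxidase of tears and milk, was at 2359, 1059.7 and 1356 CPM in WT and 4668, 4223, 4496, 4619 and 4543 CPM in KO glands, a 2.83-fold increase (adjusted p = 0.0031). *Pigr*, the receptor that carries IgA across the epithelium, was at 77.8, 97.9 and 68.8 CPM in WT and 157, 147, 164, 182 and 157 CPM in KO glands (log2 fold change 0.99, adjusted p = 0.00124). For both genes all KO mice lay above all WT mice. *Lyz1*, a lysozyme, rose 3.01-fold (log2 fold change 1.59, adjusted p = 0.000692), but had -0.10 in the second table, where reads of its near copy *Lyz2* may be assigned otherwise. *Cst10* and *Bpifb1*, called lower, were seen in WT 3 alone of the 8 mice (115 and 38.7 CPM, and no more than 0.168 and 0.0755 CPM in the other 7), the gland that also held salivary transcripts. Of the *Ifnar1* KO mice of the series, 1 had 112 CPM and 1 had 9.12 CPM of *Cst10*, and *Bpifb1* was not called without KO 3. Lactoferrin, *Ltf*, was at 521 CPM on average in WT and 459 CPM in KO glands (adjusted p = 0.37).

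**Figure D3:**
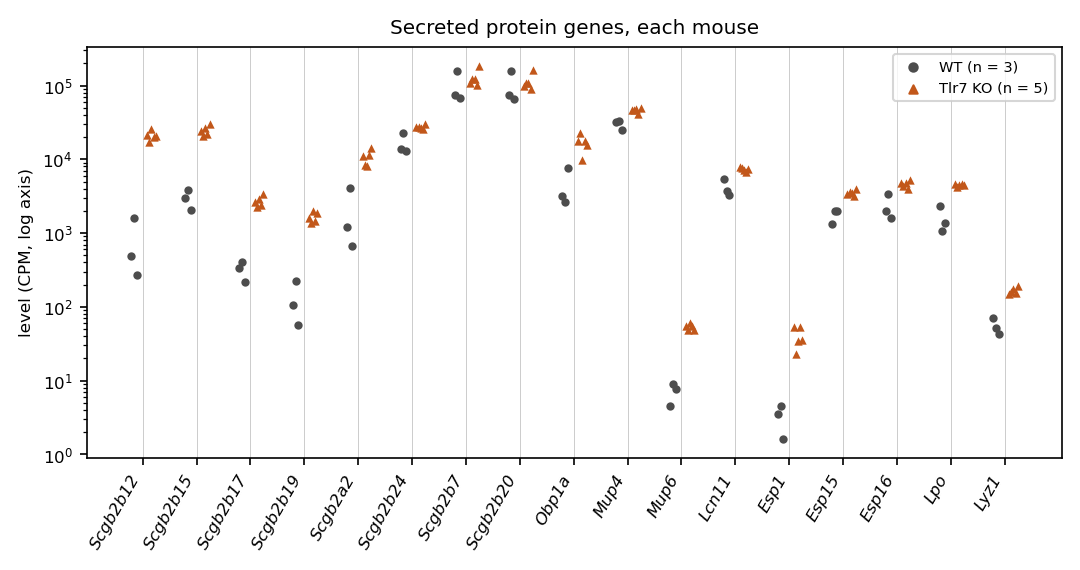
Level of 17 secreted protein genes (CPM, log axis) in each WT mouse (grey circles, n = 3) and each *Tlr7* KO mouse (orange triangles, n = 5). The groups are far apart for *Scgb2b12*, *Scgb2b15*, *Mup6* and *Esp1* and overlap for *Scgb2b7* and *Scgb2b20*, the most abundant genes shown.

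Other genes with the largest increases lie outside the secreted families. *Thrsp*, a regulator of fatty acid synthesis, was at 4.98, 0.462 and 3.23 CPM in WT and 37.4, 38.04, 44.01, 51.7 and 32.1 CPM in KO glands, a 13.7-fold increase (SE 0.50 on the log2 scale, adjusted p = 0.00144). *Nrg1*, which encodes a ligand of the ERBB receptors, was at 1.02, 0.504 and 1.56 CPM in WT and 10.1, 11.5, 16.8, 17.9 and 10.03 CPM in KO glands (12.4-fold, adjusted p = 0.000625). *Gm14135* on chromosome 2 was at 129, 233 and 21.1 CPM in WT and 2315, 2226, 1635, 2493 and 1953 CPM in KO glands (16.7-fold, and 28.4-fold without WT 2, adjusted p = 0.00308). These genes were chosen among those called with all KO mice above all WT mice, so that trait follows from the choice. Each call was kept when any 1 mouse was left out. Of the abundant genes that rose by under 2-fold, *Scgb2b24* (1.67-fold, adjusted p = 0.0393), *Gm15662* (1.63-fold, 0.0386) and *Lars2* (1.71-fold, 0.0234) lost their call without WT 1 (adjusted p = 0.146, 0.128 and 0.0909) and without WT 3 (0.123, 0.111 and 0.071). *Scgb2b24* and *Gm15662* also lost it without any 1 of the 5 KO mice (adjusted p = 0.0577 to 0.0853), and *Lars2* without KO 1 or KO 3 (0.0565 and 0.0521). *Lars2*, a mitochondrial leucyl-tRNA synthetase, and *Gm42418*, which overlaps ribosomal RNA, together took 0.462% to 0.545% of counts in WT and 0.543% to 0.771% in KO libraries, and the part of ribosomal RNA in these values was not tested.

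The filter over the WT mice leaves out 156 genes that had at least 50 counts over the KO mice, and 12 of these had at most 3 counts in every WT mouse. Such genes are found through their KO counts, so they are given as values with no test. *BC051076*, an antisense transcript on chromosome 5, had 0, 1 and 1 counts in the WT mice and 169, 155, 263, 122 and 135 in the KO mice. The ratio of the pooled CPM of the groups was 316 and rests on 2 WT counts, so its size is uncertain. *Gm9162*, a processed pseudogene on chromosome 7, had 1, 2 and 3 counts in WT and 173, 116, 191, 230 and 90 in KO mice, a ratio of 99.97 that rests on 6 WT counts. *Gm14129*, a pseudogene on chromosome 2, had 9 counts in WT 2 and none in WT 1 and WT 3, against 170, 258, 237, 109 and 51 in the KO mice. WT and KO counts were far apart in each of the 3 genes, which are the most abundant of the 156.

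Chaperones, disulfide isomerases and translocation subunits move secreted proteins into the endoplasmic reticulum and fold them. Of 46 such genes, 36 were higher (78.3%, against 15.3% of all genes), each by under 2-fold, none was lower and 10 were not called. Their log2 fold changes ran from 0.14 to 0.83 with a median of 0.49 (1.404-fold). Every KO mouse was above every WT mouse for 35 of them, against 16.6% of all genes. The median lay 0.53 above that of all genes with TMM factors, 0.56 at library size alone and 0.54 with the pan-epithelial scaling, while the number called was 0 and 17 in those other scalings, with an absolute median of 0.028 and 0.24. The number called rose to 46 when WT 2 was left out and fell to 22 and 25 when WT 1 or WT 3 was, and none was lower in any of these. *Hspa5*, the chaperone BiP, was at 529.8, 556 and 529 CPM in WT and 792, 751, 801, 737 and 792 CPM in KO glands, and the spread within each group was small. The log2 fold change was 0.53 (SE 0.09, adjusted p = 0.00363). *P4hb*, a protein disulfide isomerase and the most abundant member, was at 1092, 1529 and 1029 CPM in WT and 2047, 1827, 1917, 1968 and 1918 CPM in KO glands (log2 fold change 0.67, adjusted p = 0.00986). *Calr*, a calcium-binding chaperone, was at 487, 508 and 439.5 CPM in WT and 791, 693, 768, 732 and 767 CPM in KO glands (log2 fold change 0.65, adjusted p = 0.00238). *Derl3* (0.83, adjusted p = 0.00204), which takes misfolded proteins out of the endoplasmic reticulum, had the largest change of the list, and its relatives *Derl1* and *Derl2* had 0.28 and 0.51. *Herpud1* (0.81, 0.00104) and *Sel1l* (0.77, 0.00063), which act in the same degradation, and the chaperone partner *Sdf2l1* (0.81, 0.00138) also rose, while *Edem1*, of that degradation too, had 0.48. *Xbp1*, the transcription factor of this programme, had a log2 fold change of 0.20 and was not called (adjusted p = 0.241), and WT 2 lay above most KO mice. Plasma cells also use this machinery, and their part was not tested. The plasma cell list was lower in every KO mouse, at 1430 to 2048 CPM in sum against 3212 to 3676 CPM in WT.

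The promoters of these genes are shown where they hold the endoplasmic reticulum stress element, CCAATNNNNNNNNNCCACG on either strand, within 250 bases before to 50 after the start (RefSeq, GRCm38.p6). It was found in 8 of the 35 listed genes that have a promoter in the reference, against 37 of 27025 genes (0.137%) and 39 of 32851 promoters (0.119%). The list was written by function, so this share says nothing about the change in these glands. A link between the element and the levels was not tested. The windows of *Hspa5* (chr2:34772015-34772053, plus strand), *Pdia6* (chr12:17266481-17266519, plus strand), *Calr* (chr8:84847065-84847103, minus strand) and *Derl3* (chr10:75893232-75893270, plus strand) are given with the element in capitals, which in *Calr* and *Derl3* reads on the opposite strand.
Hspa5: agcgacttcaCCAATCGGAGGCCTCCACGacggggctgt
Pdia6: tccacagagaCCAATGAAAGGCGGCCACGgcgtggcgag
Calr: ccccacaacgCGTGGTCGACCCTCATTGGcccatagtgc
Derl3: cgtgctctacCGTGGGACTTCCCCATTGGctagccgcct
These 4 genes rose by 0.53, 0.58, 0.65 and 0.83 on the log2 scale, and *Canx* and *Hsp90b1*, which also hold the element, had 0.26 and 0.17 and were not called. The remaining genes with the element are *Dnajc3* and *Creld2*.

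Acinar transcription factors and genes of granule release had 6 of 24 higher and 1 lower, around a median of 0.10 on the log2 scale. These are 25% and 4.17%, against 15.3% and 17.4% of all genes. At library size alone none was higher and 4 lower, and with the pan-epithelial scaling 1 was higher and 5 lower; without WT 2, 11 were higher, and without WT 1 or WT 3, 2 were. *Bhlha15* (MIST1), which maintains secretory cell architecture, was at 445, 521 and 434 CPM in WT and 625, 705, 634, 622 and 693 CPM in KO glands (log2 fold change 0.49, adjusted p = 0.00839), and had 0.0092 at library size alone and 0.24 (adjusted p = 0.118) with the pan-epithelial scaling. *Sec23b*, a coat protein of vesicles leaving the endoplasmic reticulum, was at 74, 79.99 and 72.6 CPM in WT and 108, 104, 112, 109.98 and 106 CPM in KO glands (log2 fold change 0.51, adjusted p = 0.00182). *Rab27a*, which docks granules, and *Creb3l1* rose by 0.38 and 0.41 (adjusted p = 0.0216 and 0.0167), and neither was called without WT 1 or WT 3. Groups did not overlap in these genes.

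Of 24 pan-epithelial genes 9 were higher and 3 lower, all under 2-fold (37.5% and 12.5%, against 15.3% and 17.4% of all genes). Their median log2 fold change was 0.27, which is 0.31 above all genes. At library size alone none was higher and 6 lower, and the median of -0.23 lay 0.30 above all genes; without WT 1, 5 were higher and 2 lower, and without WT 3, 5 were higher and none lower. *Krt8*, a keratin of simple epithelia, was at 189.5, 211 and 208 CPM in WT and 295, 264, 308, 261 and 264 CPM in KO glands (log2 fold change 0.45, adjusted p = 0.00766), but had -0.038 at library size alone. *Jup*, a junction protein, was at 47.6, 63.03 and 53.7 CPM in WT and 86.04, 76.3, 83.7, 85.4 and 70.6 CPM in KO glands (log2 fold change 0.55, adjusted p = 0.00629). *Epcam*, an adhesion molecule of all epithelia, was at 61.7, 82.1 and 77.8 CPM in WT and 73.9, 73.5, 74.9, 71.98 and 65.7 CPM in KO glands with overlapping groups (log2 fold change -0.037, adjusted p = 0.803), but had -0.51 at library size alone and was called lower with the pan-epithelial scaling (-0.28, adjusted p = 0.0169). *Elf3*, an epithelial transcription factor, was lower (-0.96, adjusted p = 0.0147), and was not called without WT 1 (0.0527) or WT 3 (0.0682). In whole glands, more cells of a type and more RNA per cell cannot be told apart.

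**Figure D4:**
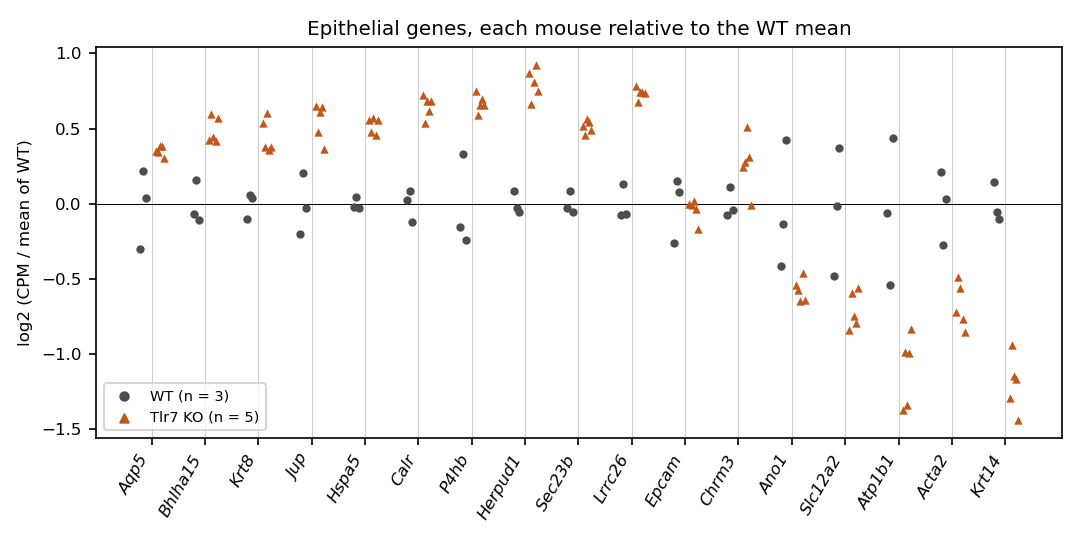
Level of 17 epithelial genes in each WT mouse (grey circles, n = 3) and each *Tlr7* KO mouse (orange triangles, n = 5) as log2 of CPM over the mean of the WT mice, with TMM scaling. Genes of protein folding lie above the WT mean in all KO mice, *Epcam* lies near the WT mean, and *Atp1b1*, *Acta2* and *Krt14* lie below it.

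Of 39 genes of fluid secretion 8 were higher (20.5%, against 15.3% of all genes), all under 2-fold. Lower were 14 (35.9%, against 17.4% of all genes), 8 of them at least 2-fold, and the median log2 fold change was 0.030. With library size alone 17 were lower and none higher, and with the pan-epithelial scaling 18 were lower and 1 higher. The higher genes included the inositol trisphosphate receptor *Itpr3* (0.54, adjusted p = 0.00465), the G protein subunit *Gnaq* (0.57, 0.00217), the receptor for vasoactive intestinal peptide *Vipr1* (0.73, 0.00474) and *Lrrc26*, a subunit of the BK potassium channel. *Lrrc26* was at 60.3, 69.4 and 60.5 CPM in WT and 109, 101, 106, 106 and 105 CPM in KO glands, with little spread in either group (log2 fold change 0.74, SE 0.078, adjusted p = 0.000709). *Aqp5*, the water channel of the acinar membrane, was at 90, 129 and 114 CPM in WT and 141, 141, 145, 145 and 137 CPM in KO glands. The KO mice were nearly equal and above all WT mice, and the log2 fold change was 0.35 (adjusted p = 0.0382), but the call was lost without each single mouse except WT 2 (adjusted p = 0.0582 to 0.107) and the sign turned to -0.11 at library size alone. *Slc12a2*, the chloride importer NKCC1, was at 18.01, 24.8 and 32.5 CPM in WT and 14, 16.6, 14.9, 14.4 and 16.97 CPM in KO glands (log2 fold change -0.71, adjusted p = 0.0109). *Atp1b1*, a subunit of the sodium pump, was at 13.7, 9.83 and 19.4 CPM in WT and 5.52, 7.22, 5.66, 7.18 and 8.04 CPM in KO glands (log2 fold change -1.099, adjusted p = 0.00519). *Ano1*, a calcium-activated chloride channel, was at 22.8, 27.7 and 40.7 CPM in WT and 20.9, 20.4, 19.4, 22.1 and 19.5 CPM in KO glands (log2 fold change -0.57, adjusted p = 0.0226), and was not called without WT 3 (0.0572) or KO 3 (0.0531). In these 3 genes every KO mouse was lower than every WT mouse, and WT 3, the gland with salivary transcripts, was the highest. *Chrm1*, a muscarinic receptor, was at 11.2, 15.96 and 10.6 CPM in WT and 8.45, 5.91, 9.97, 7.26 and 7.78 CPM in KO glands with no overlap (log2 fold change -0.67, SE 0.18, adjusted p = 0.021), and was not called without KO 4 (0.0514). *Chrm3*, the muscarinic receptor known for driving tear secretion, did not pass the test at 7.34 CPM in WT and 8.899 CPM in KO glands (log2 fold change 0.28, SE 0.12, adjusted p = 0.0996), was called without KO 5 (0.0448), and turned to -0.19 at library size alone. *Kcnn4* and *Itpr2*, which lymphocytes also use, fell by 1.54 and 1.45 on the log2 scale (adjusted p = 0.0128 and 0.00183), *Kcnn4* by 0.81 without WT 3, and lymphocyte genes fell with them; their part was not tested.

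Myoepithelial genes were lower in the knockout for 9 of 17 genes (52.9%, against 17.4% of all genes) and higher for none. The median log2 fold change of -0.67 was 0.64 below all genes. At library size alone and with the pan-epithelial scaling 10 were lower, and 8 to 10 when 1 mouse was left out. *Krt14*, a keratin of basal and myoepithelial cells, was at 17.02, 14.8 and 14.3 CPM in WT and 6.28, 8.0, 6.95, 6.85 and 5.67 CPM in KO glands. Every KO mouse was below the lowest WT mouse (log2 fold change -1.19, SE 0.11, adjusted p = 0.000604). *Acta2*, smooth muscle actin, was at 34.3, 24.5 and 30.3 CPM in WT and 18, 21.2, 20.2, 17.4 and 16.4 CPM in KO glands (log2 fold change -0.67, SE 0.12, adjusted p = 0.00427). *Trp63*, the transcription factor of basal cells, fell by 1.20 and *Tagln*, a contractile protein, by 0.92 on the log2 scale (adjusted p = 0.0041 and 0.00191). Vessel smooth muscle also makes *Acta2*, *Tagln* and *Myh11*, and its part in these values was not tested. Of 12 endothelial genes 1 was higher (8.33%) and 2 lower (16.7%), against 15.3% and 17.4% of all genes. On the log2 scale *Kdr* rose by 0.89, and *Pecam1* and *Cdh5* had -1.32 and -0.72.

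Of 18 duct genes 1 was higher and 4 lower (22.2%, against 17.4% of all genes); the median log2 fold change was -0.37 and became -0.07 without WT 3, where 2 were higher and 1 lower. *Krt19*, a duct keratin, was at 0.614, 0.546 and 0.602 CPM in WT and 0.304, 0.348, 0.113, 0.04104 and 0.105 CPM in KO glands (log2 fold change -1.65, SE 0.52, adjusted p = 0.0379), a low level at which the call was lost without WT 1, WT 3, KO 3, KO 4 or KO 5 (adjusted p = 0.06 to 0.102) and in the second table (0.0541). *Tfcp2l1*, a transcription factor of ducts, was at 11.4, 9.74 and 23.7 CPM in WT and 6.85, 6.39, 6.23, 7.39 and 6.99 CPM in KO glands, with WT 3 far above the other WT mice (log2 fold change -1.15, adjusted p = 0.00886). *Slc5a8*, a sodium-coupled monocarboxylate transporter, was the gene that rose, from 28.7, 30.99 and 33.7 CPM in WT to 46.5, 43.8, 46.7, 45.1 and 47.7 CPM in KO glands (log2 fold change 0.56, adjusted p = 0.0015), and had 0.055 at library size alone. Genes of gland development had 4 of 18 higher and 4 lower (22.2% each, against 15.3% and 17.4% of all genes), the latter falling to 1 without WT 3, while at library size alone none was higher and 6 lower. *Foxc1*, needed for the gland to form, rose from 18.8, 17.3 and 20.4 CPM in WT to 29.2, 24.4, 29.6, 32.4 and 28.5 CPM in KO glands (log2 fold change 0.61, adjusted p = 0.00306), but had 0.097 at library size alone (adjusted p = 0.753). *Meis1* rose by 0.55 (0.0024) and *Tfap2b* by 0.71 (0.0161, and 0.0586 without WT 1). *Pax6*, the eye and gland determinant, had 0.09 and was not called (adjusted p = 0.342). *Barx2* and *Sox10* were lower (-1.19 and -1.09) and highest in WT 3, without which neither was called and *Sox10* had -0.50; *Sox10* was not called without KO 1 or KO 3 either.

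**Figure D5:**
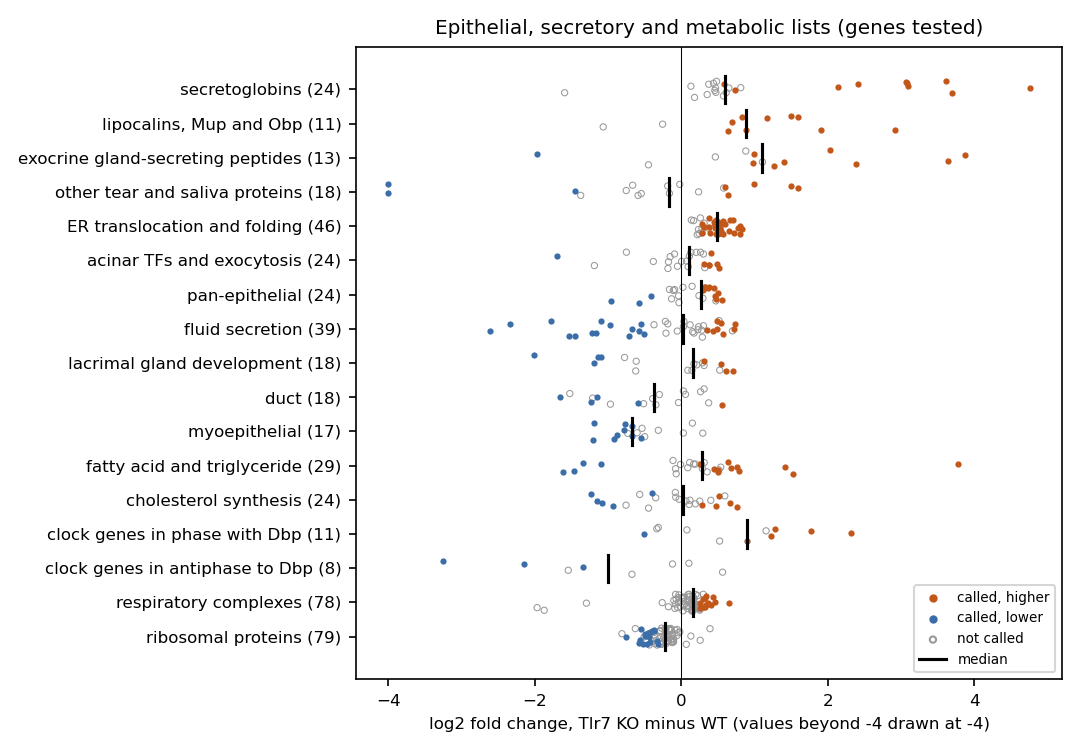
Log2 fold change (*Tlr7* KO minus WT, TMM scaling) of each gene tested in 17 epithelial, secretory and metabolic lists, with called genes filled in orange (higher) or blue (lower), other genes as open circles and the list median as a bar. Genes of folding in the endoplasmic reticulum cluster around their median of 0.49, secreted families reach the highest values, and myoepithelial genes lie mostly below 0.

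Fatty acid and triglyceride genes rose for 11 of 29 (37.9%, against 15.3% of all genes) and fell for 4 (13.8%, against 17.4%). The median log2 fold change was 0.29 (0.33 above all genes), and 3 were higher and 5 lower at library size alone. *Fasn*, fatty acid synthase, was at 29.5, 22.3 and 25.6 CPM in WT and 67.8, 72.4, 81.7, 80.4 and 42.3 CPM in KO glands, where KO 5 was the lowest KO mouse but still above all WT mice (log2 fold change 1.42, SE 0.21, adjusted p = 0.00215). *Dgat2*, which makes triglycerides, was at 32.2, 27.8 and 20.8 CPM in WT and 82.9, 68.4, 75.99, 84.9 and 75.8 CPM in KO glands (log2 fold change 1.53, adjusted p = 0.000506). *Srebf1*, the transcription factor of this pathway, was at 47.7, 33.01 and 41.01 CPM in WT and 72, 73.6, 67.3, 68.6 and 70.9 CPM in KO glands (log2 fold change 0.80, adjusted p = 0.00196), and had 0.25 at library size alone (adjusted p = 0.419). The 4 genes that fell, *Elovl5* (-1.46, adjusted p = 0.00434), *Elovl6* (-1.34, 0.0103), *Fads1* (-1.097, 0.00289) and *Fads2* (-1.62, 0.00637), elongate or desaturate fatty acids and had no overlap between the groups. Fat cells make several of these transcripts, and their part was not tested. Of 15 adipocyte genes 1 was higher and none lower, with sums of 68.9 to 91.6 CPM in WT and 47.6 to 104.2 CPM in KO glands that overlapped. Of 24 cholesterol synthesis genes 5 were higher and 5 lower (20.8% each, against 15.3% and 17.4% of all genes), among them *Hmgcs1* (0.76, adjusted p = 0.00354, with 0.31 and 0.176 at library size alone) and *Fdft1* (-1.24, 0.00794); without WT 1 the lower count was 1 and without WT 3 it was 2. *Srebf2* fell by 0.40 on the log2 scale (adjusted p = 0.0188), and was not called without WT 1 (0.0649), without WT 3 (0.0803) or with a correction for GC and length (0.0744).

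Clock genes in phase with *Dbp* were higher for 5 of 11 (45.5%) and lower for 1 (9.09%). Clock genes in antiphase were lower for 3 of 8 (37.5%) and higher for none. Of all genes, 15.3% were higher and 17.4% lower. *Dbp*, a clock output factor, was at 17.4, 1.97 and 6.78 CPM in WT and 42.4, 27.8, 44.5, 53.2 and 51.2 CPM in KO glands, and the WT mice differed widely among themselves (log2 fold change 2.32, SE 0.54, adjusted p = 0.0114, and 3.28 without WT 1). *Arntl* (BMAL1), the activator of the clock, was at 1.91, 11.3 and 2.38 CPM in WT and 0.457, 0.696, 0.491, 0.492 and 0.578 CPM in KO glands (log2 fold change -3.24, SE 0.56, adjusted p = 0.00384), and had -1.98 without WT 2. *Nfil3*, a repressor in antiphase to *Dbp*, was at 8.59, 25.9 and 10.2 CPM in WT and 3.501, 5.13, 2.68, 2.05 and 3.47 CPM in KO glands (log2 fold change -2.14, adjusted p = 0.00411, and -1.49 without WT 2). WT 2 was highest for *Arntl* and *Nfil3* and lowest for *Dbp*, and the KO mice were close together for *Arntl*. *Tef* rose 2.34-fold and *Nr1d1* (REV-ERB) 3.42-fold (adjusted p = 0.0013 and 0.00258), whereas *Per1* was lower (-0.51, adjusted p = 0.00824, but 0.101 with a correction for GC and length) and *Clock* had 0.57 (adjusted p = 0.0535). The hour at which each gland was taken is not given in the sources used here, so genotype and hour cannot be told apart for these genes. The REV-ERB and ROR element TAGGTCA, searched on both strands, lies in the promoter windows of *Arntl* (chr7:113207531-113207557, plus strand, after the start) and *Nfil3* (chr13:52981035-52981061, minus strand), 2 of 7 antiphase genes with a promoter in the reference, against 2.97% of genes and 2.61% of promoters, and is shown in capitals.
Arntl: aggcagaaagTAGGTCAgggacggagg
Nfil3: cgctcggaacTGACCTActaacacaca
Both genes were called lower in the glands where *Nr1d1* was called higher, and a link between these levels was not tested. The E-box CACGTG was searched as well. It lies in 4 of 9 genes in phase with *Dbp* that have a promoter in the reference (44.4%, against 8.09% of genes), which are *Tef*, *Per1*, *Ciart* and *Bhlhe41*. Of the 7 antiphase genes it lies in 1, *Cry1*.

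Nuclear genes of the respiratory complexes were higher for 13 of 78 (16.7%, close to the 15.3% of all genes) and lower for none, with a median log2 fold change of 0.15, and this count was among the least stable, at 50 without WT 2 and 3 without WT 1 or WT 3 (with 1 lower without WT 3). At library size alone 14 were lower and none higher, and the median lay 0.22 above that of all genes, against 0.19 with TMM factors. *Ndufc2*, a subunit of complex I, had the largest change among abundant members (0.66, adjusted p = 0.00572). Cytosolic ribosomal proteins, whose copies and pseudogenes share reads, were lower for 17 of 79 (21.5%, against 17.4% of all genes) and higher for none, with a median of -0.22. *Rpl13a* was at 418, 553 and 433 CPM in WT and 259, 294, 261, 239 and 338 CPM in KO glands (log2 fold change -0.75, adjusted p = 0.00475), and WT 2 was the highest mouse. Without WT 2 the count was 15 lower and 3 higher, and with 1 KO mouse left out it was as low as 7.

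Among genes lower in the knockout, the largest falls in genes above 10 CPM with no overlap included those of immunoglobulin constant regions. *Ighg2c*, the IgG2c heavy chain, was at 50.1, 28.7 and 41.01 CPM in WT and 0.0761, 0.0435, 0.0377, 0.123 and 0.6304 CPM in KO glands (log2 fold change -7.91, SE 0.44, adjusted p = 3.38e-05, and -9.07 without KO 5). *Ighg2b* was at 70.8, 47.1 and 99.8 CPM in WT and 1.83, 2.304, 1.93, 1.395 and 3.26 CPM in KO glands (log2 fold change -5.102, SE 0.28, adjusted p = 3.38e-05). For both genes every WT mouse was far above every KO mouse, and KO 5 was the highest of the KO mice. *Gm21718* fell from 120.5, 723 and 139 CPM in WT to 14.7, 14.1, 9.47, 12.7 and 20.3 CPM in KO glands, with WT 2 far above the other WT mice (log2 fold change -4.52, and -3.19 without WT 2). Of 20 B cell genes all 20 were lower (against 17.4% of all genes), at a median of -3.29 on the log2 scale, and this held without each mouse in turn. T cell genes were lower for 21 of 24 (87.5%), a count that was 4 without WT 1 and 6 without WT 3. Interferon-stimulated genes were lower for 2 of 28 (7.14%, under the 17.4% of all genes), a count that was 16 without WT 2. Their median log2 fold change was -0.52, against -0.037 over all genes. The sum of this list was 185.4 CPM in WT 2, against 541.6 and 546.7 in WT 1 and WT 3. Skeletal muscle genes were called for none of 16, and for all 16 as lower without KO 4.

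Set against the 3 *Ifnar1* KO mice, whose age is not given in the sources used here, some of the genes above differed and most were not shown to. Per the methods of the study, another *Ifnar1* KO sample had been left out because it grouped with WT glands and was as inflamed as they were. In a fit of all 11 mice, chosen after the values were seen, 94 of 14093 genes (0.667%) differed between the knockouts, 43 of them higher in *Tlr7* KO glands (0.305%). Of 23 genes, which are *Tlr7* and those named above for the size of their change or their abundance, 5 differed; they had been chosen for their values in the same *Tlr7* KO mice. *Mup6* was at 53.5 CPM on average in *Tlr7* KO and 6.92 CPM in *Ifnar1* KO glands, a 7.75-fold difference (adjusted p = 7.61e-05). *Obp1a* was 4.66-fold higher (adjusted p = 0.0399) and *Gm5938* 5.66-fold higher (0.039) in *Tlr7* KO glands. *Ighg2c* and *Ighg2b* were 74.5-fold and 11.1-fold lower in *Tlr7* KO than in *Ifnar1* KO glands (adjusted p = 0.0032 for each). For *Scgb2b12*, at 21117 CPM in *Tlr7* KO and 14045 CPM in *Ifnar1* KO glands, the log2 difference was 0.59 with SE 0.49 (adjusted p = 0.65), and for *Scgb2b15* it was 0.35 with SE 0.24 (adjusted p = 0.574), so differences of these sizes were not shown.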

How the data were processed

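RNA of whole lacrimal glands was extracted with a silica column kit and sequenced on an Illumina HiSeq 4000. Per the methods of the study, the authors demultiplexed the reads with bcl2fastq, aligned them to mm10 with HISAT2 2.1.0, estimated transcript abundance with salmon and used tximport to obtain values for genes. The deposited table used here holds the resulting estimated counts of 19058 genes, rounded to whole numbers. A second deposited table of whole-number counts for 39017 genes served as an alternative. How it was counted is not given in the sources used here. Of the columns, 1 names no sample and was not used. WT libraries held 20512315 to 27174764 counts and *Tlr7* KO libraries 24857275 to 28814250, and 3 counts, the floor, equal 0.0821 to 0.158 CPM and cover counting error only.

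Counts were analysed with R 4.3.3, edgeR 4.0.16, limma 3.58.1 and DESeq2 1.42.0. TMM scaling, edgeR's two-sided quasi-likelihood test of the 3 WT and 5 *Tlr7* KO mice and Benjamini-Hochberg adjustment over all genes tested were used, with no covariate, and the code was tested on simulated data. The count table leaves strand and shared reads unresolved, so gene families and antisense transcripts are uncertain. Genes and lists were chosen with earlier results of these data known, and lists were written from general knowledge. Genes named are *Tlr7*; the 12 largest increases and 3 largest decreases at 2-fold or more without overlap and at 10 CPM or more; the 5 most abundant that rose at and under 2-fold; the largest called change in each direction per secreted, epithelial or metabolic list at 10 CPM or more; 14 fixed genes; and the 3 most abundant that the filter left out. Other list members were picked to illustrate a list after their values were seen. Alternatives were other scalings, filters, tests, tables and thresholds, a GC and length correction, replicate number as a block and each mouse left out.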

Additional observations from a re-analysis of the deposited data

Results flagged for a closer look

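In *Tlr7* KO glands, groups of 5 mice were checked for a mouse far from the others. Of the 58 genes named by rule besides *Tlr7*, 2 had such a mouse, no more than the about 1 in 20 groups that chance gives. Other genes given with values, such as *Scgb2b7*, are not counted here. *Scgb1b19* was at 42.8 CPM in KO 5 and at 35.6 to 37.5 CPM in the other KO mice, a gap of 0.735 of the range, and all of them lay above the highest WT mouse (7.98 CPM). *Ighg2c* was at 0.63 CPM in KO 5 and at 0.038 to 0.12 CPM in the other KO mice (0.856 of the range), while the lowest WT mouse was at 28.7 CPM. KO 5 also had the lowest TMM factor, 0.691, and the highest secretoglobin share, 63.8%, of the KO mice, whose part in these values was not tested.

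Signal also appeared in genes that the filter over the WT mice left out of the comparison. The mean in KO glands was 7.03 CPM for *BC051076*, 6.75 CPM for *Gm14129* and 6.59 CPM for *Gm9162*, against 0.0232, 0.126 and 0.0669 CPM in WT glands.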

How the results depend on the processing

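Of the counts over all genes, DESeq2, RLE size factors, other gene filters, all 11 mice in 1 fit, the second table and the GC and length correction moved none by over 1.5 times. Of 90 counts and medians of lists, the GC and length correction moved 15, the second deposited counting 8, filterByExpr 7, no filter 6, DESeq2 and a filter over either group 3 each and all 11 mice in 1 fit 2. Respiratory genes called higher were 24 with that correction and 8 with no filter, ribosomal and cholesterol genes called lower 10 and 3 with the correction, and lipocalins and related genes called higher 4 in the second table. Library size alone gave 123 genes higher, 78 at least 2-fold higher and 2895 at least 2-fold lower, and the pan-epithelial scaling 610 higher and 141 at least 2-fold higher. An adjusted p under 0.01 left 1969 genes called, 969 higher and 727 at least 2-fold lower. A test against a 2-fold threshold (glmTreat) left 37 higher and 50 lower. With 1 mouse left out, 2601 to 6595 genes were called, 1290 to 3144 higher, 171 to 262 at least 2-fold higher and 811 to 2006 at least 2-fold lower, the extremes coming from WT mice. The GC and length correction put 55.3% of called genes higher in the knockout, against 46.8%.

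The labels do not say that equal replicate numbers pair the mice. Deviations of same-numbered WT and KO mice correlated at -0.142, -0.4 and 0.0304, and none was the best match of its number. With so few WT mice these correlations cannot decide whether the numbers pair the mice. With the number as a replicate block, 14 genes were called (3631 at an unadjusted p under 0.05), 2 higher, both at least 2-fold, and 12 at least 2-fold lower, and *Tlr7* had -1.48 (adjusted p = 0.109); *Nrg1* (0.0474), *Ighg2c* and *Ighg2b* kept their call among named genes.

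Signs turned for *Lyz1* in the second table (-0.10), for *Aqp5* (-0.11), *Chrm3* (-0.19) and *Krt8* (-0.038) at library size alone, and for *Epcam* with 1 mouse left out (-0.15 to 0.044, positive without WT 2 and, at 0.0013, without WT 3), with the replicate block (0.015) and with the GC and length correction (0.029). Library size alone lowers all genes together, by 0.50 at the median. For *Lyz1* and *Epcam* the cause was not tested. *Cst10* could not be tested without WT 3, where it fell under the gene filter, and DESeq2 gives no adjusted p for *Cst10* and *Gm21718*.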

Other observations

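Genes outside the lists, chosen after their values were seen, also rose in the knockout with no overlap between the groups. Of 14 *Klk1b* kallikreins, secreted proteases that male mice make in glands, 3 passed the filter. All 3 were at least 2-fold higher (against 1.67% of all genes), with a median log2 fold change of 2.37. Other members of the family, such as *Klk1b1*, are on the salivary list. *Klk1b24* was at 0.955, 0.588 and 0.219 CPM in WT and 6.58, 6.52, 9.81, 7.43 and 4.31 CPM in KO glands (12.04-fold, adjusted p = 0.00103), *Klk1b26* rose 5.18-fold and *Klk1b11* 2.25-fold (adjusted p = 0.00116 and 0.00103). The family is of related genes, so the counting could share reads among them, and the likeness of their transcripts was not measured. *Ccl28*, a chemokine of mucosal epithelia that attracts IgA plasma cells, was at 62.6, 47.5 and 53.8 CPM in WT and 134, 149.8, 153, 159 and 149.99 CPM in KO glands (log2 fold change 1.45, SE 0.11, adjusted p = 0.000225), in the glands where the plasma cell list was lower. *Lepr*, the leptin receptor, was at 3.31, 3.11 and 3.09 CPM in WT and 12.5, 12.5, 14.1, 13.9 and 11.98 CPM in KO glands, with a small spread in both groups (log2 fold change 2.04, SE 0.10, adjusted p = 3.38e-05).

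Further genes of this kind were *Slc27a2*, a fatty acid transporter (2.9-fold, adjusted p = 0.00104), *Tfrc*, the transferrin receptor (2.75-fold, 0.000852), *Pgf*, a growth factor of vessels (4.35-fold, 0.00113), and *Nos1*, the neuronal nitric oxide synthase (4.13-fold, 0.00314). *Fkbp5*, which responds to steroid hormones, was at 122, 108 and 83.5 CPM in WT and 202, 251, 260.1, 255 and 200.5 CPM in KO glands (2.24-fold, adjusted p = 0.00138). *Ddc*, the enzyme of dopamine and serotonin synthesis, rose 9.28-fold (adjusted p = 0.00313; 15.2-fold without WT 1), and KO 5 was the lowest KO mouse for *Ddc*, *Nos1* and *Klk1b24*.

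Lists of other cells not described above had 8 of 13 plasma cell genes lower and 2 higher, 10 of 23 macrophage and dendritic cell genes lower and 1 higher (17 lower without WT 2, 4 without WT 1), 3 of 14 fibroblast genes lower (21.4%) and 3 of 10 peripheral nerve genes lower with 1 higher (30% and 10%), against 17.4% of all genes lower and 15.3% higher. The 2 plasma cell genes that rose were *Sdc1* and *Derl3*, the latter also on the folding list. Of 17 immediate early and heat shock genes, which respond to handling, 3 were lower (17.6%, near the 17.4% of all genes), and none was without WT 1, WT 3, KO 1 or KO 3. Red blood cell genes were called for none of 5.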
